A study of Mus musculus with 2 samples.

Results

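The brush border is the carpet of microvilli on the apical face of absorptive enterocytes, and 39 listed genes for its enzymes, transporters and skeleton were followed in intestinal stem cells of fed and fasted mice. They were listed by name, with earlier results of these data known. The list holds 12 digestive enzymes, 13 nutrient transporters, 12 genes of microvillus structure and 2 cytosolic enzymes of enterocytes. All 39 were found among the 45706 gene identifiers of the count files, and all 39 passed the filter on low counts that 12026 genes passed. The cells came from Lgr5-EGFP-IRES-creERT2 mice of 4 months, which carry a green fluorescent protein and a tamoxifen-dependent Cre recombinase at Lgr5, a gene active in stem cells of the crypt base. Cells of high GFP were sorted, and RNA sequencing gave 1 library from mice on standard chow ad libitum and 1 from fasted mice. Duration of fasting, number and sex of the animals and stretch of intestine are not in the labels.

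Enterocytes arise from crypt stem cells and assemble their brush border as they move onto the villus. Its membrane carries hydrolases that finish the digestion of sugars and peptides, and carriers that take up the products. Inside each microvillus a bundle of actin filaments is held by villin, plastin and espin, tied to the membrane by myosin and ezrin, and joined to its neighbours by protocadherins at the tip. Many of the listed genes, though not all, are thus known as genes of differentiated cells, while the sort selects stem cells.

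Digestive enzyme genes had the highest median fasted-to-fed ratio of the 3 main classes and structural genes the lowest. By summed counts, in which Mgam weighs most, the enzymes came last, with a log2 ratio of 0.087 against 0.30 for the transporters and 0.11 for the structural genes. Of 39 genes 9 were higher in the fasted library and 0 were lower, where a gene is called when its libraries differ by 2-fold or more and the exact 95% counting interval of the ratio excludes 1. These were 5 of 12 digestive enzymes (Sis, Enpep, Lct, Alpi and Treh), 3 of 13 transporters (Slc15a1, Cubn and Slc26a3) and 1 of 12 structural genes (Krt20). Of all 12026 measured genes 2.51% were higher and 1.91% were lower by the same rule. Without a fold threshold, the interval lay above 1 for 24 of 39 genes (16.7% of all measured genes) and below 1 for 4, Mgam, Eps8, Pls1 and Myo7b (19.2%). Ratios are of counts divided by a size factor per library, 1.19 fed and 0.842 fasted, so equal raw counts give a log2 ratio above 0. The median log2 ratio was 0.90 (1.87-fold) for the enzymes, 0.57 (1.49-fold) for the transporters and 0.15 (1.11-fold) for the structural genes, against -0.02 for all measured genes. A positive log2 ratio was found for 11 of 12 enzymes, 9 of 13 transporters and 7 of 12 structural genes, and for 47.9% of all measured genes. With 1 library per group there is no spread between animals and no test, so each interval covers counting error only and each difference, also that between the classes, describes these 2 libraries. In sorted bulk cells a change in RNA per cell and a change in the share of cells of a type cannot be told apart.

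The libraries held 6985316 counts (fed) and 5020056 counts (fasted), so 1 count equals 0.143 and 0.199 CPM (counts per 1000000 counts of the library). The sort marker Lgr5 was abundant in both, with 3381 and 1709 counts, or 484 and 340 CPM. Its log2 ratio was -0.49 (interval -0.57 to -0.40). Of 10 stem cell markers 0 were higher or lower, 9 had a negative log2 ratio, and their summed level was 20990 CPM fed and 13650 CPM fasted, of which Olfm4 alone held 14373 and 8257 CPM. Of 7 goblet cell markers 3 were higher (Tff3, Fcgbp and Zg16), and their sum went from 629 to 1235 CPM. Paneth markers summed to 683 and 672 CPM, with 1 of 5 higher (Mmp7) and negative log2 ratios for the other 4. Proliferation markers summed to 2728 and 1879 CPM with 0 of 8 called, and enteroendocrine markers to 25.9 and 24.9 CPM with 0 of 4 measured ones called. Without a fold threshold, the interval lay below 1 for 8 of 10 stem cell and 6 of 8 proliferation markers, and above 1 for 0 and 1. For goblet markers it lay above 1 for 6 of 7 and below 1 for 0. For Paneth markers the interval lay above 1 for 1 of 5 and below 1 for 2. Of all measured genes 19.2% lay below 1 and 16.7% above. Immune markers summed to 30 counts fed and 8 fasted, with Cd79a at 0 in both libraries and the 1 measured marker, Cd68, lower (25 and 6 counts). Red blood cell markers summed to 0 and 2 counts, and stromal or endothelial markers to 31 and 14 counts, with Col3a1 and Pdgfra at 0 in both libraries. The part of goblet or stem cell numbers in the brush border values was not tested.

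Start regions are shown for 4 enzyme genes, since the sugar-splitting enzymes Sis and Mgam had log2 ratios of opposite sign and Alpi and Treh share a motif. The windows have 300 bases, 250 before to 50 after the start, 5′ to 3′ on the gene's strand, from RefSeq on GRCm38.p6. Capitals mark searched letters, read on both strands: GTTAAT, which is part of the binding site of HNF1, AGATAAG for GATA factors, and CAAAGTCCA for HNF4 factors. For CDX factors the searched core was CAATAAA, and the variant with CCATAAA was counted as well. The windows are chr3:72967814-72968113 (minus strand) for Sis, chr6:40628581-40628880 (plus) for Mgam, chr1:87101557-87101856 (minus) for Alpi and chr9:44672983-44673282 (plus) for Treh.
Sis: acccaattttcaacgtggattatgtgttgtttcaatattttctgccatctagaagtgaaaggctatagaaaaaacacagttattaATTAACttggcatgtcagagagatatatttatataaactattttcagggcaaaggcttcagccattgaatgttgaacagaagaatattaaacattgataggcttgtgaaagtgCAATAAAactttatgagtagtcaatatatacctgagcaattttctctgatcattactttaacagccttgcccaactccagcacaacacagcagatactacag
Mgam: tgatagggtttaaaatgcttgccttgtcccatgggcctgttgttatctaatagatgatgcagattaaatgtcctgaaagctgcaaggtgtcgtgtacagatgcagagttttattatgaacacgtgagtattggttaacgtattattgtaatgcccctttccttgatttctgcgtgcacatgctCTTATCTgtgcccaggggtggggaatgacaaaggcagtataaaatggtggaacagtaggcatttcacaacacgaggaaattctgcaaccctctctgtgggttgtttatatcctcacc
Alpi: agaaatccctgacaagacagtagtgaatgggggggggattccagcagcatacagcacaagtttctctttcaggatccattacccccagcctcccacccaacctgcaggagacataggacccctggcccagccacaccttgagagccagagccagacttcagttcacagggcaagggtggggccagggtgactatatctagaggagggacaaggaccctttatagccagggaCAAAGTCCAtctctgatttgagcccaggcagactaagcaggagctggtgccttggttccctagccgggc
Treh: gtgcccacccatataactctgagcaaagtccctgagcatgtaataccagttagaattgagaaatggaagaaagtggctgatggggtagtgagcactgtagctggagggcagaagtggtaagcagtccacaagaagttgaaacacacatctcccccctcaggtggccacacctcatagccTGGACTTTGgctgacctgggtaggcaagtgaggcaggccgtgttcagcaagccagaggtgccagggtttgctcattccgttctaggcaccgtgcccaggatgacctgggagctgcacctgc

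HNF1, CDX2, GATA4 and HNF4 are known as transcription factors of the intestinal epithelium. In Sis the HNF1 letters begin at base -165 and the CDX letters at base -52, counted from the start site with -1 just before it. Mgam holds the GATA letters at base -67. The HNF4 letters lie at base -19 of Alpi and base -71 of Treh, on opposite strands, and occur in 2 of the 33 listed genes with a window against 0.555% of all 27025 genes with windows. HNF1 letters were present in 4 of 33 genes (8.24% of all genes), CDX letters in 5 (8.32%) and GATA letters in 1 (3.50%). Matches describe these letters in these windows and show no binding.

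Among the enzymes that split sugars, 3 of 4 were higher and the most abundant was not. Sis, sucrase-isomaltase, which digests sucrose and starch fragments (chromosome 3, 72888557 to 72967863, on GRCm38 like all gene positions here), had 299 counts fed and 516 fasted, or 42.8 and 103 CPM. Its log2 ratio was 1.29 (interval 1.08 to 1.5), a 2.44-fold difference. Lct, lactase (chromosome 1, 128284756 to 128328318), had 93 and 144 counts, at a log2 ratio of 1.13 (0.74 to 1.52), and Treh, which splits trehalose (chromosome 9, 44673233 to 44686305), had 33 and 47 counts and 1.01 (0.34 to 1.70). Treh stands at the threshold: it had 0.99 when scaled to total counts and 0.88 after correction for exon length.

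Mgam, maltase-glucoamylase, is the partner enzyme of sucrase-isomaltase in starch digestion (chromosome 6, 40628831 to 40769123). It had 5627 counts fed and 2942 fasted, a log2 ratio of -0.44 (-0.50 to -0.37), so the fed level was 1.35 times the fasted level. Per exon length it also stood far above Sis, at 92.5 against 5.73 counts per kilobase of exon and 1000000 counts (RPKM) (fed) and 67.3 against 13.8 RPKM (fasted). Mgam held 18.0% of all counts of the listed genes when fed and 12.2% when fasted, and sums over the enzymes follow it. The summed counts of the 12 enzymes gave a log2 ratio of 0.087 (0.044 to 0.13), and without Mgam 0.55 (0.50 to 0.61).

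**Figure D1:**
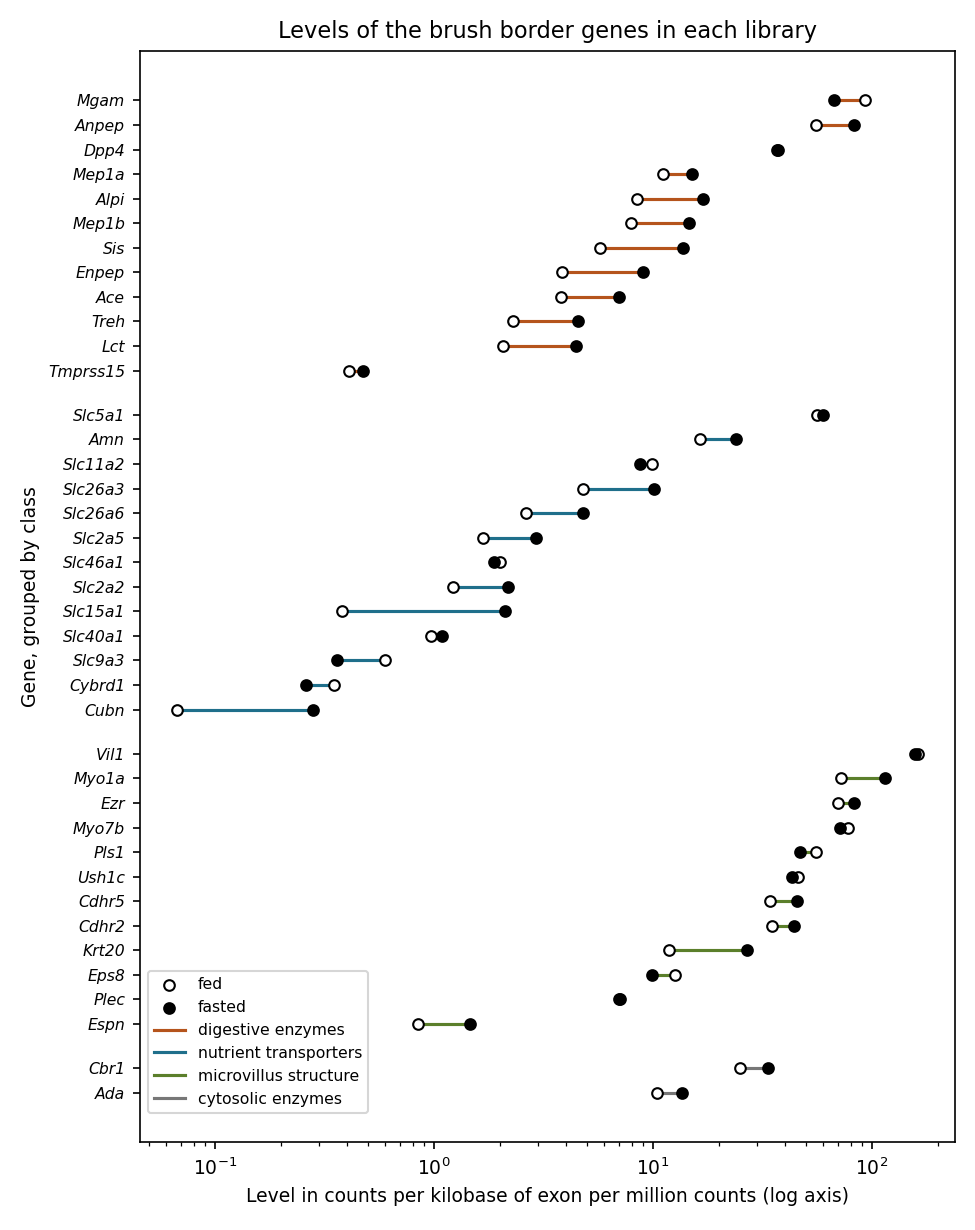
Level of each listed gene in the fed library (open circle) and the fasted library (filled circle), in RPKM on a log axis, 1 library each, grouped by class. The structural genes Vil1 (162 and 158) and Myo7b (77.7 and 71.2) are high in both libraries, whereas Sis moves from 5.73 to 13.8 and Slc15a1 from 0.381 to 2.12.

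All 6 peptidase genes had positive log2 ratios, and 1 was higher. Enpep, a glutamyl aminopeptidase (chromosome 3, 129269175 to 129332720), had 126 counts fed and 212 fasted and 1.25 as its log2 ratio (0.92 to 1.58). Mep1b and Ace fell just short of 2-fold. Mep1b, a subunit of the metalloprotease meprin, had 145 and 192 counts and 0.90 (0.58 to 1.22), and Ace, which removes dipeptides from the carboxyl end of peptides, had 141 and 186 counts and 0.90 (0.57 to 1.22). The other meprin subunit gene, Mep1a, had 267 and 262 counts and 0.47 (0.22 to 0.72). The 2 peptidase genes of highest RPKM were not called. Anpep, aminopeptidase N, had 1599 and 1715 counts and 0.60 (0.50 to 0.70), while Dpp4, which removes dipeptides from the amino end of peptides, had 1634 and 1184 counts and 0.03 (-0.08 to 0.14).

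Alpi, the intestinal alkaline phosphatase (chromosome 1, 87098002 to 87101606), was also higher, from 138 to 199 counts at a log2 ratio of 1.03 (0.71 to 1.35). Alpi too stands at the threshold, with 1.00 both when scaled to total counts and after correction for exon length. It is a close relative of Akp3, which had 137 and 145 counts. Of 2302 words of 36 bases in Alpi transcripts 128 (5.56%) occur in other genes, 63 of them in Akp3. Some reads may thus be assigned to either phosphatase. Summed over both phosphatases the log2 ratio was 0.82 (0.59 to 1.05), below 2-fold. Tmprss15, enteropeptidase, which activates pancreatic trypsinogen, had only 12 and 10 counts and 0.23 (-1.13 to 1.57), so that a 2-fold difference was not detectable at this depth.

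All 4 carriers for sugars and peptides had positive log2 ratios, and 1 was higher. Slc15a1, PEPT1, which takes up di- and tripeptides (chromosome 14, 121459621 to 121505252), had 13 counts fed and 52 fasted, or 1.86 and 10.4 CPM. This log2 ratio of 2.50 (1.60 to 3.50), a 5.65-fold difference (3.03 to 11.3), was the largest of the 39, from low counts. Slc5a1, the sodium-glucose carrier SGLT1, was the most abundant transporter and had 1612 and 1229 counts and 0.11 (-0.0018 to 0.21). The facilitative carriers had ratios between these: Slc2a2 (GLUT2) had 49 and 63 counts and 0.86 (0.30 to 1.43), and the fructose carrier Slc2a5 (GLUT5) had 40 and 50 counts and 0.82 (0.19 to 1.46).

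Of the ion exchangers, the chloride-bicarbonate exchanger Slc26a3 (chromosome 12, 31390871 to 31473917) was higher, with 213 and 324 counts, at a log2 ratio of 1.10 (0.85 to 1.36). Its relative Slc26a6 had 100 and 131 counts and 0.89 (0.50 to 1.28). Slc9a3, the sodium-proton exchanger NHE3, pointed the other way with 23 and 10 counts and -0.70 (-1.94 to 0.42), an interval that includes 1-fold. NHE3 is the main sodium absorber of the mature brush border, yet its gene was near the bottom of the list in both libraries (0.598 and 0.362 RPKM).

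Of the genes for iron and folate handling 0 of 4 were called, and all 4 intervals include a ratio of 1. The metal carrier Slc11a2 (DMT1) had 442 and 278 counts, at a log2 ratio of -0.17 (-0.39 to 0.05), and the folate carrier Slc46a1 had 43 and 29 counts and -0.07 (-0.80 to 0.64). Slc40a1, ferroportin, which exports iron at the basal side, had 61 and 49 counts and 0.18 (-0.39 to 0.75), and the iron reductase Cybrd1 had 13 and 7 counts and -0.40 (-1.96 to 1.04). Cubilin and amnionless together form the receptor for vitamin B12 bound to intrinsic factor. Cubn (chromosome 2, 13276338 to 13491813) was higher, from 7 to 21 counts (2.08, 0.79 to 3.56). It shares 2.46% of its exon bases with Gm13270 on the opposite strand, which had 10 counts fed and 2 fasted. Other listed genes also overlap genes on the opposite strand, among them Slc11a2 (6.33%) and Ace (5.58%). Amn was far more abundant than Cubn, with 211 and 222 counts, at a log2 ratio of 0.57 (0.29 to 0.85).

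**Figure D2:**
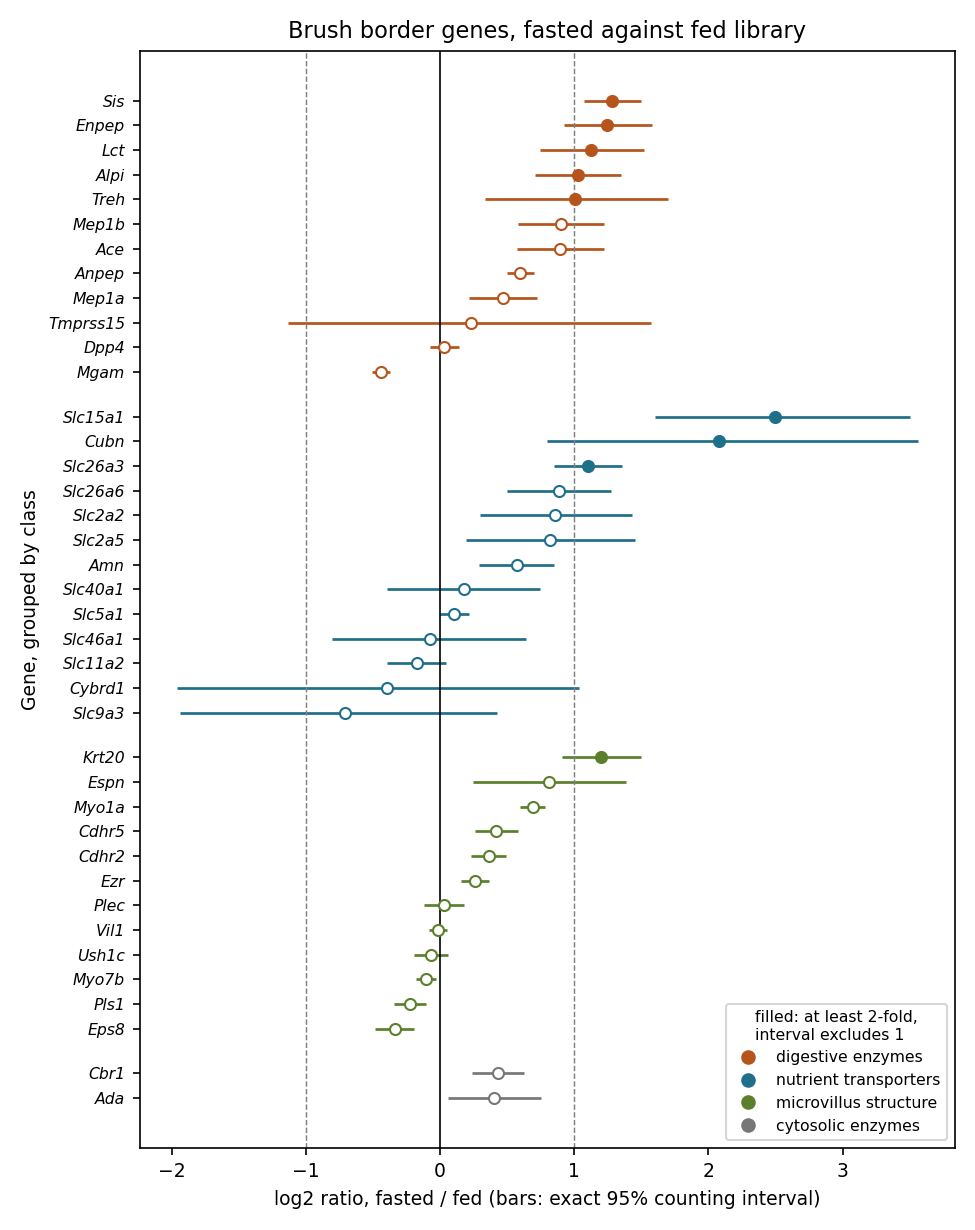
Log2 ratio of fasted to fed for each listed gene with its exact 95% counting interval, grouped by class, with filled points for the 9 higher genes and dashed lines at 2-fold. Digestive enzymes lie mostly right of 0 except Mgam at -0.44, and structural genes run from Eps8 at -0.34 to Krt20 at 1.20.

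Most structural genes were abundant in both libraries, and their median log2 ratio was the lowest of the main classes. In the actin core, 0 of 6 genes were called. Vil1, villin (chromosome 1, 74409376 to 74435559), had the highest level per exon length of all 39 genes in both libraries, with 4015 and 2816 counts, at a log2 ratio of -0.01 (-0.08 to 0.06). The bundling gene Pls1 had 1517 and 919 counts and -0.23 (-0.35 to -0.11), and Eps8, which caps and bundles actin at the microvillus tip, had 1091 and 612 counts and -0.34 (-0.48 to -0.19). The remaining 3 genes of the core had positive ratios. Myo1a, the myosin that ties the core to the membrane, had 1868 and 2135 counts and 0.69 (0.60 to 0.78), ezrin (Ezr) had 1613 and 1372 counts and 0.26 (0.16 to 0.37), and espin (Espn) had 49 and 61 counts and 0.81 (0.25 to 1.39). Among the 39 genes Myo1a had rank 2 by RPKM when fasted (115) and rank 4 when fed (72.0).

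The complex that joins neighbouring microvilli was likewise uncalled in 4 of 4 genes. The protocadherins Cdhr2 and Cdhr5 had 0.36 (0.23 to 0.49) and 0.42 (0.26 to 0.58), from 1006 and 916 counts and from 659 and 624 counts. Their scaffold Ush1c (harmonin) had -0.07 (-0.20 to 0.06), from 1235 and 835 counts, and the motor Myo7b had -0.11 (-0.18 to -0.03), from 3592 and 2365 counts. Krt20 and Plec stand in the structural class as intermediate filament and linker genes, outside the actin core and this complex. Krt20, a keratin of differentiated epithelium (chromosome 11, 99428403 to 99438150), was the 1 higher structural gene, with 159 and 259 counts and 1.20 (0.91 to 1.5). Plec, plectin, which links keratin filaments to actin, had 889 and 644 counts and 0.03 (-0.12 to 0.18). Neither cytosolic enzyme was called, with adenosine deaminase (Ada) at 146 and 137 counts and 0.41 (0.06 to 0.75), and carbonyl reductase (Cbr1) at 448 and 429 counts and 0.44 (0.24 to 0.63).

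**Figure D3:**
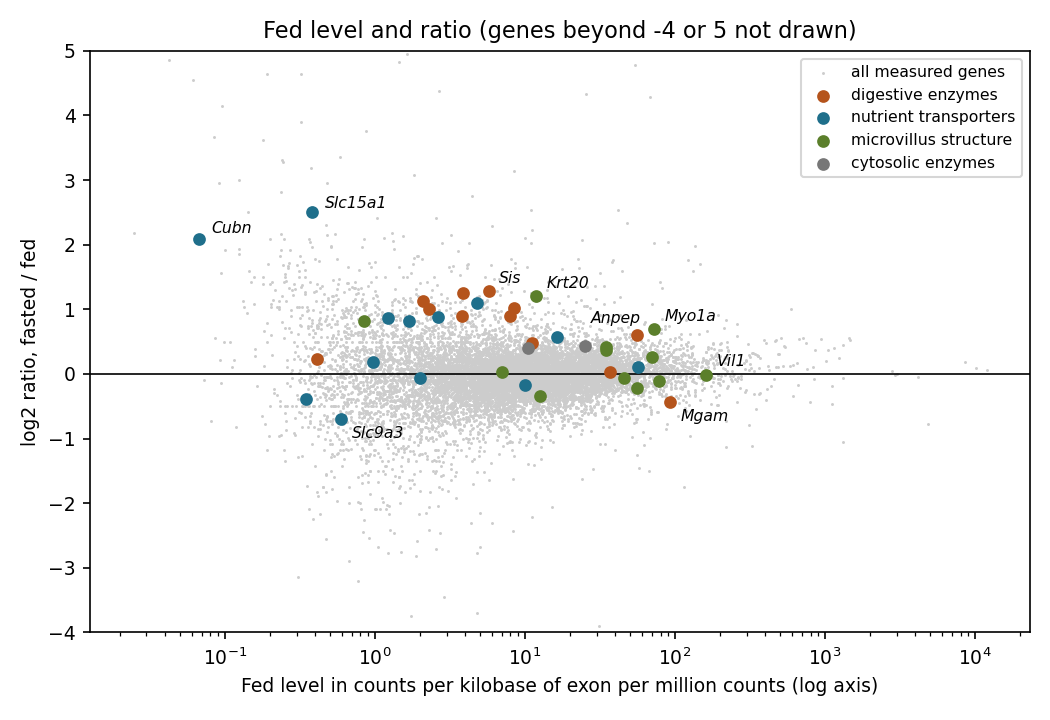
Log2 ratio of fasted to fed (vertical) against the fed level in RPKM (log axis), for the listed genes in colour and all measured genes in grey, without genes that have 0 fed or fasted counts or lie outside the axis. The 19 listed genes of lower fed level have a median log2 ratio of 0.89 and the 20 of higher level 0.31.

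The median ratio was larger among listed genes of low fed level, as the plot of ratio against fed level shows. The 19 genes of lower fed level (0.0671 to 7.91 RPKM) had a median log2 ratio of 0.89 with 7 higher. The 20 above them (8.45 to 162 RPKM) had a median of 0.31 with 2 higher. Of all measured genes 302 of 12026 were higher, and with a minimum of 5 CPM 176 of 10506, so calls vary with abundance among them. This minimum is on the mean CPM of both libraries, so it is not the split by fed RPKM used here. The share of all genes called within each of the 2 ranges of fed RPKM was not computed. Spearman's rho between fed RPKM and log2 ratio was -0.36 over these 39 genes and 0.061 over 11991 measured genes. With the mean RPKM of both libraries in place of the fed level the values were -0.26 and 0.15. Genes share the 2 libraries, and the fed count enters both quantities, so these values are descriptions. The order of levels was nearly kept, with a rho of 0.97 between fed and fasted RPKM.

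Further genes of the same machinery were taken from lists of genes outside the 39. Among other apical peptidases and hydrolases 2 of 9 measured genes were higher, 0 were lower and the median was 0.58. Enpp3, a nucleotide-splitting enzyme and 1 of these, had 31 and 49 counts, at a log2 ratio of 1.16 (0.48 to 1.86). The other apical carriers held 5 higher and 0 lower genes of 17, around a median of 0.41. Among these, Slc6a19, which carries neutral amino acids, had 54 and 167 counts, at a log2 ratio of 2.13 (1.68 to 2.60). The dicarboxylate carrier Slc13a2 had 3 and 26 counts and 3.61 (1.91 to 5.98), the phosphate carrier Slc34a2 had 14 and 34 counts and 1.78 (0.84 to 2.79), and the inositol carrier Slc5a11 had 7 and 21 counts and 2.08 (0.79 to 3.56). The basolateral carriers had 1 of 12 higher, Slc51a at 1.09 (0.58 to 1.61), and a median of 0.23.

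Other microvillus and apical trafficking genes had 3 of 24 higher, 0 lower and a median of 0.12. The less abundant of these were Tmigd1 with 4 and 17 counts and 2.59 (0.97 to 4.62), and the scaffold Pdzk1 with 11 and 20 counts and 1.36 (0.23 to 2.57). The third, the abundant galectin Lgals4, known for apical delivery of glycoproteins, had 9586 and 13639 counts and 1.01 (0.97 to 1.04). Lgals4 thus stands at the 2-fold threshold. Keratin and terminal web genes had 0 of 8 called and a median of -0.03. For regions of the gut, proximal markers (Gata4, Pdx1, Onecut2) summed to 467 CPM fed and 492 CPM fasted, ileal markers to 52.8 and 43.0 CPM and colonic markers to 25.3 and 29.3 CPM, with Hoxb13 at 0 in both libraries and 0 of the 7 measured regional markers called.

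**Figure D4:**
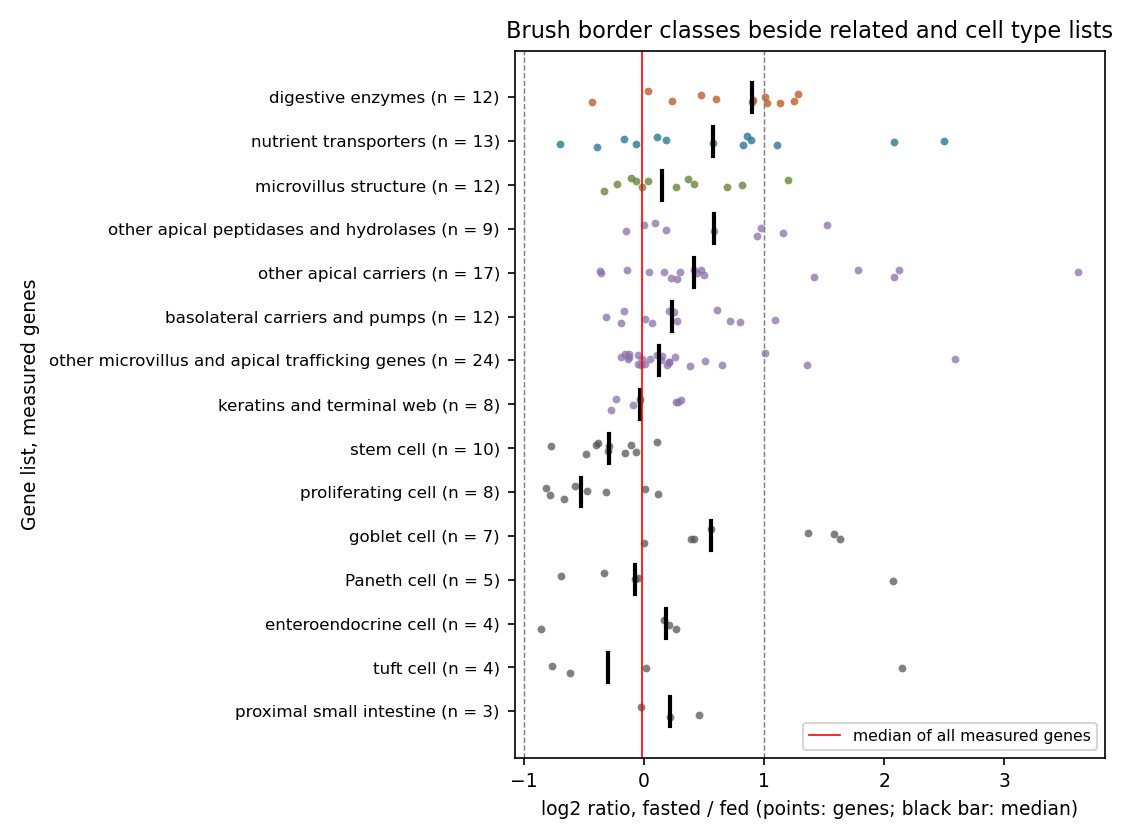
Log2 ratio of fasted to fed for the measured genes of each list (points) with the list median (black bar), for the 3 brush border classes, related lists and cell type markers with at least 3 measured genes. Medians run from 0.90 for digestive enzymes and 0.57 for transporters to 0.15 for microvillus structure, -0.30 for stem cell and -0.53 for proliferation markers. Goblet cell markers have a median of 0.56, close to that of the transporters. The red line marks -0.02, the median of all measured genes.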

How the data were processed

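The deposited files hold raw read counts per Ensembl gene, made by the authors. Per the submitters' processing notes, the tools include DESeq, FastQC, HTSeq and STAR and the builds are mm10 and GRCm38. For annotation, strand setting and multi-mapping, the rule is not given in the sources used here. A second deposited table holds a signal, normalised counts. They equalled each raw count divided by 1 factor per library (1.19 fed, 0.842 fasted) for 100% of values within 0.01. Results here rest on the raw counts.

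Identifiers were matched to symbols, coordinates and exon lengths of GENCODE M21 (45143 of 45706). Counts were divided by median-of-ratios factors, and log2 ratios of fasted to fed were given exact 95% Clopper-Pearson intervals (scipy 1.17.1). Measured genes reached 20 counts in sum and 1 CPM on average, over all genes of the table. RPKM used all exon bases of a gene. No test was possible with 1 library per group. The procedure was tested on simulated data with counting error only, which cannot show how spread between animals would affect the calls. Every listed gene is named; from other lists, called genes are named, at most 4 per list, those whose interval bound lies farthest from 0. Some genes that meet this rule are not reported here. Markers at 0 counts, Olfm4 and, as the gene of the sort, Lgr5 are named besides, chosen after their values were seen. The members, lists and motifs were chosen with earlier results of these data known. Alternatives were TMM and upper-quartile factors (edgeR 4.0.16), total counts, the deposited normalised values, no filter, a 5 CPM filter, 1.5-fold and 3-fold thresholds, a correction by a running median over exon length (201 genes) and summed counts.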

Additional observations from a re-analysis of the deposited data

How the results depend on the processing

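At a 1.5-fold threshold 17 listed genes were higher (8 enzymes, 6 transporters, 3 structural genes) and 614 and 607 of all genes were higher and lower. At 3-fold 2 listed genes were higher, both transporters, with 0 enzymes and 0 structural genes, and 124 and 88 of all genes. A minimum of 5 CPM left 176 higher and 111 lower genes in all, and 8 of the listed genes, without Cubn. Scaling to total counts and the length correction each left 8 by ending the call of Treh. Under TMM and upper-quartile factors the number was 9. The deposited values have the same factors, and all 39 genes passed the filter, so those alternatives could not change it. The number of lower listed genes was 0 under every other alternative run. Class medians kept their sign and order under the scaling, filter and length alternatives. With summed counts the order changed: the enzyme value was 0.087, the lowest, the structural value 0.11 and the transporter value 0.30. Depth limits Tmprss15, Cybrd1, Slc9a3, Slc15a1 and Cubn, with 7 to 23 fed counts. No paired analysis was possible because each group has 1 library.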
